A study of Mus musculus with 12 samples.

Results

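The genes that let neurons receive inhibition were followed here through ribosome-bound and whole-tissue RNA of the mouse hypothalamus and midbrain. They were 26 genes, taken by symbol from the 32531 gene rows of the count tables: subunits of GABA-A, GABA-B and glycine receptors, the postsynaptic scaffold gephyrin, and the chloride cotransporters Slc12a2 and Slc12a5. They are not every subunit of these families. All 26 symbols were present in the tables. The libraries came from translating ribosome affinity purification (TRAP), in which polysomes carrying a tagged ribosomal protein are captured with an antibody, and their RNA is sequenced beside RNA of the whole tissue. Every library came from adult mice of the Slc17a6-EGFP/Rpl10a line JX883, so both fractions and both regions carried the transgene. The line carries EGFP fused to Rpl10a and is named for Slc17a6, the gene of the vesicular glutamate transporter VGLUT2. The groups were hypothalamus IP (the immunopurified, ribosome-bound RNA), hypothalamus input, midbrain IP and midbrain input, with 3 libraries each and 12 in all. The labels do not say whether a library held 1 animal or a pool, and they list no IP of untagged mice. The p-values therefore measure only the spread between these libraries, which may be technical.

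GABA-A receptors are chloride channels built from subunits of several classes, usually alpha and beta subunits with a gamma subunit at synapses, or with delta outside them. GABA-B receptors are pairs of Gabbr1, which binds GABA, and Gabbr2, which couples to G proteins that open potassium channels. Glycine receptors are chloride channels of alpha subunits with the beta subunit Glrb, which binds gephyrin and so anchors the receptor at synapses. What opening such a chloride channel does to a neuron depends on its internal chloride, which Slc12a2 (NKCC1) loads and Slc12a5 (KCC2) extrudes. In the hypothalamus and midbrain, VGLUT2 neurons are the main excitatory cells and lie among many GABA neurons that contact them.

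Libraries held 41909019 to 55148109 counts on genes, so that a count of 3 was worth 0.0537 to 0.0710 CPM (the count scaled to a common effective library size). Slc17a6 itself stood at 3489, 1122 and 1743 CPM in replicates 1, 2 and 3 of the hypothalamus IP, against 518, 218 and 311 CPM in the hypothalamus input. It stood at 3955, 1864 and 2394 CPM in the midbrain IP, against 1236, 501 and 589 CPM in the midbrain input, so the tag's namesake was above the input in every pair. All 12 markers of oligodendrocytes and all 16 of astrocytes fell in the IP of both regions, as did 11 of 14 markers of GABAergic neurons in the hypothalamus and 13 of 14 in the midbrain (edgeR, adjusted p under 0.05). Of the markers of other cells, 6 and 7 of 8 for oligodendrocyte precursors, 11 and 11 of 12 for microglia, 8 and 8 of 12 for endothelial and mural cells and 1 and 1 of 2 for glycinergic neurons fell in the hypothalamus and the midbrain. In those regions 6 and 7 of 7 markers of subcortical glutamatergic neurons rose, as did 6 and 2 of 12 general neuron markers and 1 and 2 of 8 cerebellar ones. Another general neuron marker, Map2, fell in both regions. Over all genes tested, rises made up 14.2% and 14.0%, and falls 19.6% and 19.9%, with the hypothalamus first. The cerebellar counts and the midbrain count of general neuron markers were near those shares of rises. Replicate 1 stood apart in all 4 groups. Its IPs held 12.3% and 12.5% of their counts on the ribosomal RNA gene Rn45s, against 5.21% to 6.85% in the other IPs. Its inputs had 16.2% and 15.1% of reads ambiguous between genes, against 4.03% to 9.30% in the other inputs. Of the genes of this set that reached 1 CPM in at least 1 library of the group, 16 of 20 were highest in replicate 1 in the hypothalamus IP, 19 of 22 in the hypothalamus input, 18 of 22 in the midbrain IP and 19 of 23 in the midbrain input. Over all genes tested those shares were 40.7%, 35.4%, 42.8% and 37.7%. Counts of called genes of the set are therefore also given from fits that took the replicate number as a block and from fits without replicate 1, and single genes from the block where it changed a call.

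Levels are set against each other per kilobase of exon, and a call is a Benjamini-Hochberg adjusted p under 0.05 in edgeR's quasi-likelihood test over the 18128 genes tested. Of the 26 genes, 23 passed the filter on low counts. The GABA-B subunit Gabbr1 had the highest mean level of the set in both IPs, with 64.1 ± 41.1 CPM per kb in that of the hypothalamus and 88.4 ± 32.8 in that of the midbrain (SD, n = 3 each). Behind it in the hypothalamus IP came Gabra5 at 50.9 ± 17.9, Slc12a5 at 42.6 ± 30.4, Glrb at 29.98 ± 21.7, Gabrb2 at 25.9 ± 12.96 and Gabbr2 at 25.4 ± 9.40 CPM per kb. The same genes filled the first 6 places in the midbrain IP, where Gabbr2 stood at 52.1 ± 15.2 and Gabra5 at 43.2 ± 11.3 CPM per kb. In the hypothalamus input the highest were Gabbr1 at 34.6 ± 15.01 and Slc12a5 at 34.2 ± 18.04 CPM per kb, and in the midbrain input Gabrb2 at 49.9 ± 18.7 and Gabbr1 at 44.8 ± 8.79. Neighbours in these orders overlapped within their SDs, so the order of adjacent genes does not stand beyond the spread between libraries. With the longest protein-coding transcript in place of all exons, an alternative chosen after seeing the data, Gabbr1 kept the first place in both IPs and in the hypothalamus input, and Gabrb2 in the midbrain input.

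**Figure D1:**
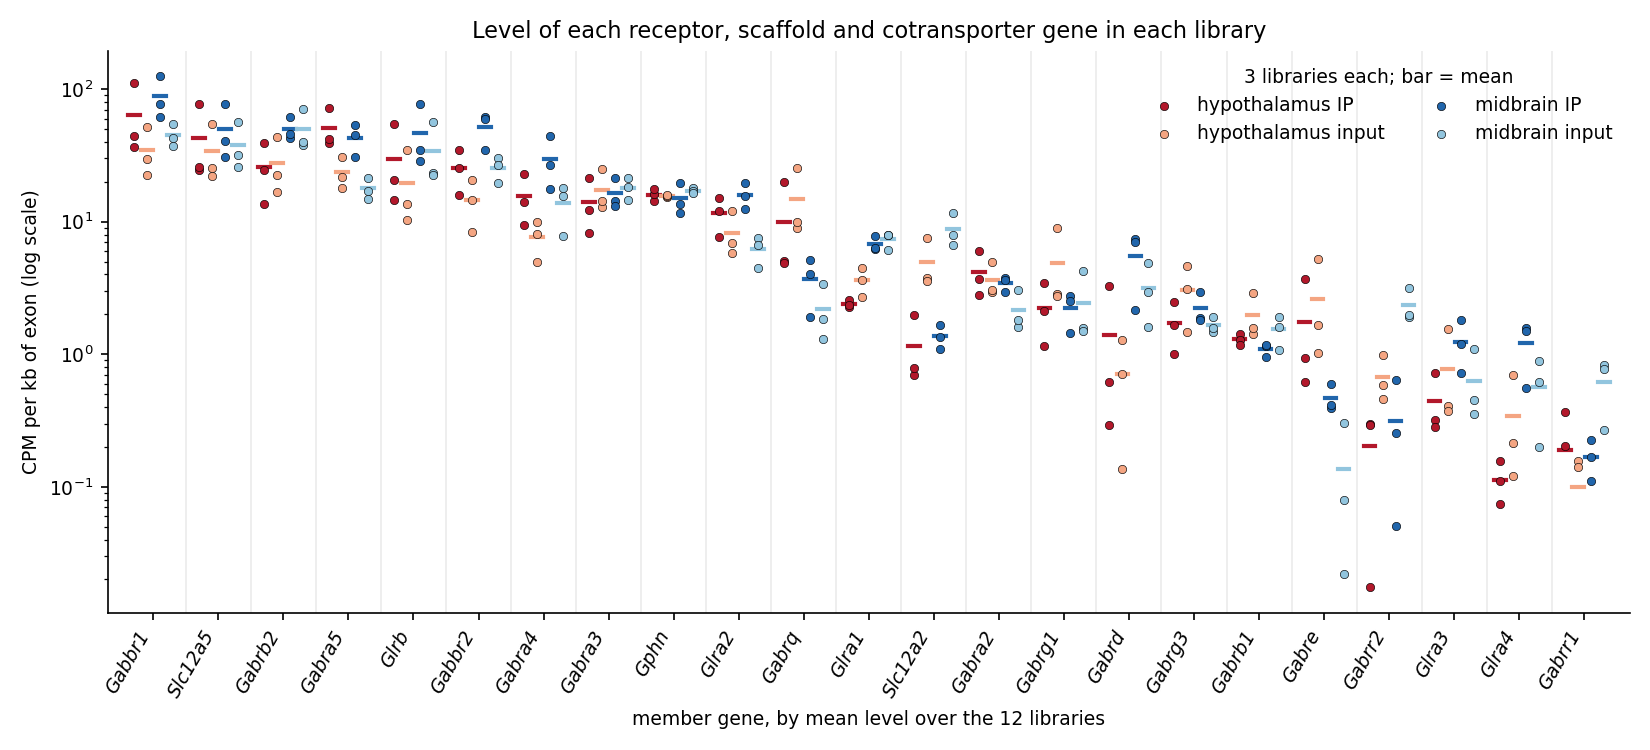
Level of each of the 23 tested genes in CPM per kb of exon (log scale); each point is 1 library, each bar the mean of a group of 3, and 2 libraries in which Gabrr1 had no count are not drawn. The genes run from the highest to the lowest mean level over the 12 libraries, from Gabbr1 to Gabrr1.

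At the other end, 3 genes did not pass the filter. Gabra6, the alpha subunit of cerebellar granule cells, had no count in the hypothalamus IP and at most 0.0710 CPM in any library. Gabrr3 had 2 counts, both in 1 midbrain input library, and its exons overlap those of 1700022E09Rik. Gabrp, the pi subunit known from reproductive tissue, had 24 counts, all in midbrain input replicate 1, where it stood at 0.461 CPM. A level under the floor of 3 counts cannot be told from none at this depth.

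The first question the design poses is which of these genes are higher or lower in the RNA bound to tagged ribosomes than in the tissue around them. In the hypothalamus IP against its input, 1 of 23 genes was called higher, Gabra5, where 14.2% of all genes tested were, and 1 was called lower, Slc12a2, where 19.6% of all genes were. In the midbrain IP against its input, 3 were called higher, Gabra5, Gabbr2 and Glra2, where 14.0% of all genes were, and 2 lower, Slc12a2 and Gabrr2, where 19.9% were. With the replicate block, the hypothalamus counts were 5 higher and 5 lower, against 19.5% and 23.8% of all genes, and the midbrain counts 10 higher and 2 lower, against 20.3% and 23.6% of all genes. All 7 calls made without the block also passed with it. Without replicate 1, and with no block, 2 genes were called higher (Gabra5 and Gabbr1) and 2 lower (Slc12a2 and Gabrq) in the hypothalamus, where 14.3% and 16.6% of all genes were. In the midbrain, 6 were then higher (Gabra2, Gabra5, Gabre, Gabbr1, Glra2 and Glra3) and 1 lower (Slc12a2), where 14.2% and 15.8% of all genes were. The median log2 fold change of the 23 genes was -0.09 in the hypothalamus, beside -0.08 over all genes, and 0.46 in the midbrain, beside -0.05 over all genes. With library size alone in place of TMM scaling, the median over all genes moved to -0.25 in the hypothalamus and -0.13 in the midbrain, and the split of all hypothalamic calls from 2576 higher and 3547 lower to 1632 and 4011. All IPs carried 1 sequencing index and all inputs another, so fraction and index cannot be told apart. In bulk RNA of this kind, fewer cells of a type and less RNA per cell cannot be told apart.

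**Figure D2:**
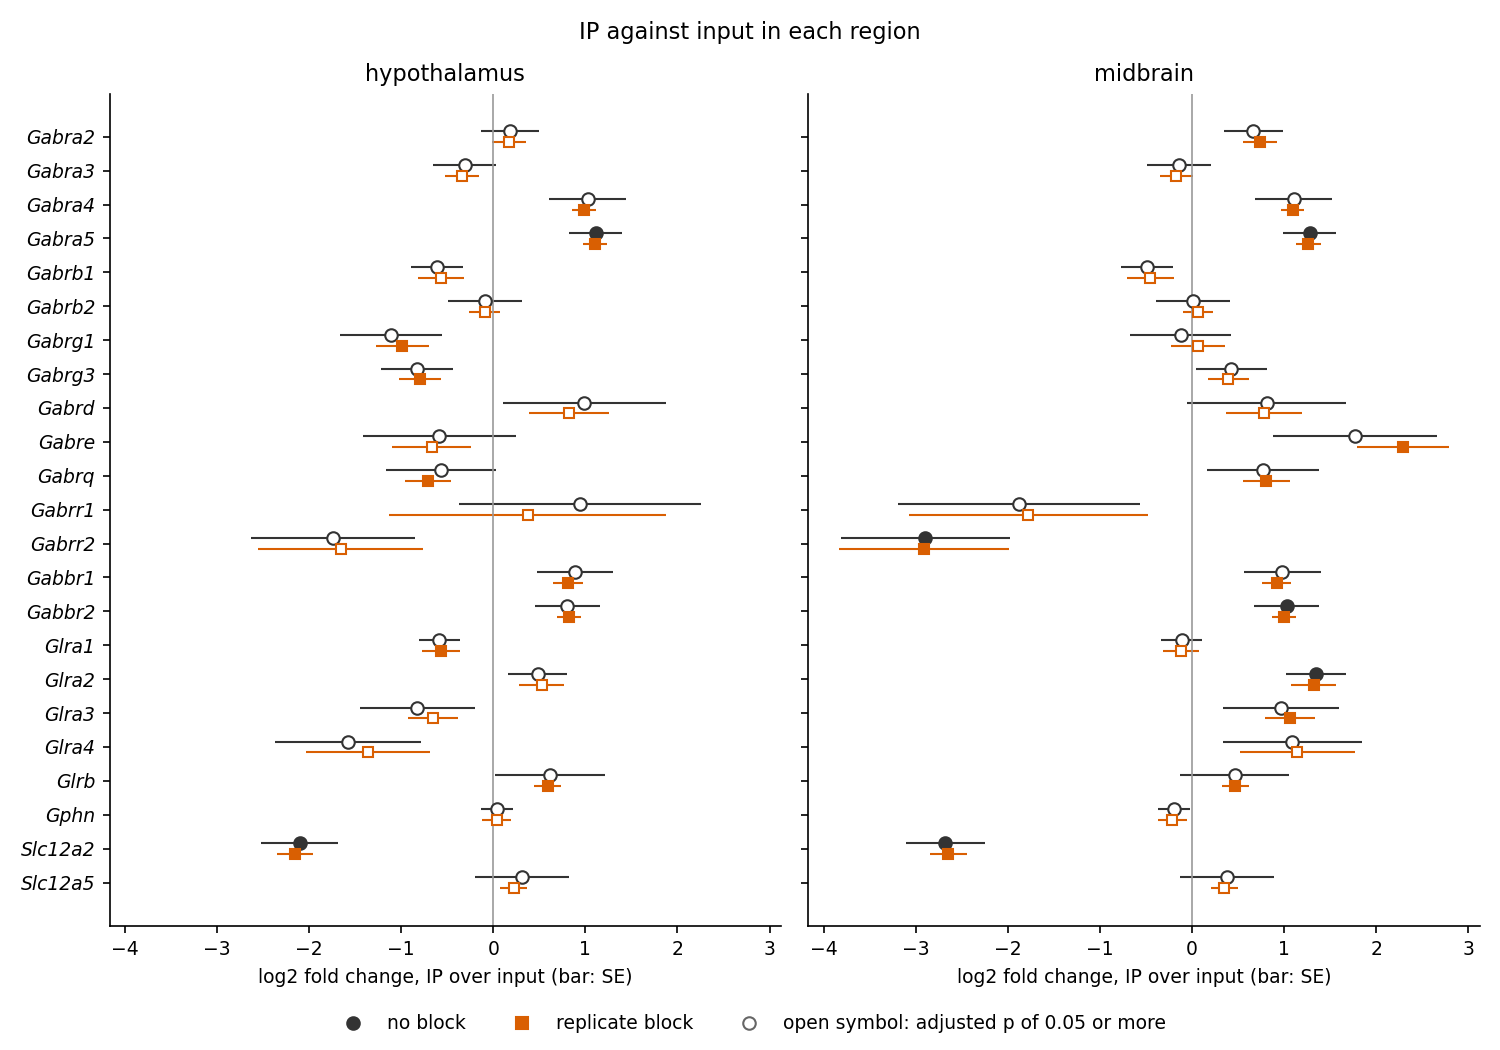
Log2 fold change of IP over input for the 23 tested genes, in the hypothalamus (left) and the midbrain (right); circles are fits without a block, squares fits with the replicate block, bars are SE and filled symbols have an adjusted p under 0.05. Gabra5 lies to the right of 0 and Slc12a2 to the left of 0 in both regions, filled in both fits.

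Among the alpha subunits, which together with beta or gamma subunits form the sites for GABA and for benzodiazepines, Gabra5 rose in the IP of both regions, and no other alpha subunit was called without the block. This subunit is known from receptors outside synapses that carry tonic inhibition. Gabra5 stood at 213, 117 and 124 CPM in the hypothalamus IP against 92.05, 64.9 and 53.1 CPM in the hypothalamus input, and at 158, 135 and 92.1 CPM in the midbrain IP against 64.1, 50.5 and 44.4 CPM in the midbrain input. Every IP library lay above every input library of its region. Gabra5 rose 2.16-fold in the hypothalamus IP, at 1.11 ± 0.28 (SE, adjusted p = 0.0101) on the log2 scale, and 2.42-fold in the midbrain IP, at 1.28 ± 0.29 (SE, adjusted p = 0.00495). Both calls held without any 1 of the 12 libraries. Part of 1 exon, 148 bases, is shared with the antisense gene Gm9962, and the strand setting of the counting is not given, so these counts carry that uncertainty.

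Gabra4, which partners the delta subunit in the thalamus, had the same direction as Gabra5 in both regions without passing the test. It stood at 85.9, 57.1 and 139.9 CPM in the hypothalamus IP against 49.2, 29.98 and 60.03 CPM in the hypothalamus input, and at 162, 108 and 268 CPM in the midbrain IP against 94.99, 47.1 and 108 CPM in the midbrain input. The IP was higher in all 3 same-numbered pairs of each region, while the groups overlapped. Its log2 fold change was 1.02 ± 0.42 (SE, adjusted p = 0.0784) in the hypothalamus and 1.11 ± 0.42 (SE, adjusted p = 0.0587) in the midbrain, and with the block it passed in both, at 0.99 ± 0.13 and 1.09 ± 0.13. Markers of thalamic neurons, where this subunit is prominent, summed to 843 to 2861 CPM in the hypothalamus IP against 558 to 1458 CPM in the hypothalamus input, and to 3388 to 5822 CPM in the midbrain IP against 1920 to 2980 CPM in the midbrain input. Of 8 such markers, 1 rose in each region (Calb2), near the 14.2% and 14.0% of all genes that rose there. None of the markers was at 0 in any group, and their part in the level of Gabra4 was not tested.

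The synaptic subunit Gabra2 stood at 45.6, 21.5 and 28.5 CPM in the hypothalamus IP against 37.9, 22.6 and 23.5 CPM in the hypothalamus input, and at 28.6, 27.6 and 22.5 CPM in the midbrain IP against 23.3, 12.2 and 13.9 CPM in the midbrain input. Its groups overlapped, with log2 fold changes of 0.19 ± 0.32 and 0.67 ± 0.32, of which the midbrain one passed with the block, at 0.74 ± 0.19. Gabra3, a subunit common in monoamine nuclei, stood at 84.4, 32.03 and 48.03 CPM in the hypothalamus IP against 97.2, 50.5 and 56.2 CPM in the hypothalamus input. In the midbrain it stood at 84.5, 56.6 and 51.4 CPM in the IP against 83.9, 71.4 and 57.1 CPM in the input. Gabra3 was called in neither region, with log2 fold changes of -0.31 ± 0.35 in the hypothalamus and -0.14 ± 0.35 in the midbrain. As a share of the summed level per kb of Gabra2 to Gabra6 in a library, Gabra5 took 60.3% ± 7.5 in the hypothalamus IP against 45.3% ± 5.9 in the hypothalamus input, and 46.8% ± 11.4 in the midbrain IP against 34.5% ± 3.9 in the midbrain input (SD, n = 3 each). Gabra3 took 15.95% ± 2.75 in the hypothalamus IP against 32.7% ± 3.0 in its input, and 17.5% ± 3.0 in the midbrain IP against 35.1% ± 5.6 in its input. The ratio of Gabra5 to Gabra3 was, in geometric means, 2.75 times as high in the hypothalamus IP as in its input and 2.67 times as high in the midbrain IP as in its input, with no overlap of libraries in either region. With 3 libraries against 3, an exact permutation test cannot go below p = 0.1, which both reached, or 0.168 after adjustment over 32 such ratio tests.

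The beta subunits, which most GABA-A receptors need for assembly and trafficking, did not pass the test in either region. Gabrb2 stood at 250.3, 85.9 and 158 CPM in the hypothalamus IP against 276, 107 and 143 CPM in the hypothalamus input, and at 392, 272 and 293 CPM in the midbrain IP against 454, 242 and 255 CPM in the midbrain input. Its log2 fold changes were -0.09 ± 0.40 in the hypothalamus and 0.01 ± 0.40 in the midbrain. Gabrb1 stood at 19.6, 17.9 and 16.2 CPM in the hypothalamus IP against 40.2, 19.7 and 21.9 CPM in the hypothalamus input, and at 13.2, 16.1 and 16.2 CPM in the midbrain IP against 22.2, 14.99 and 26.6 CPM in the midbrain input. In the hypothalamus all 3 IPs of Gabrb1 lay below all 3 inputs, at -0.61 ± 0.28 (SE, adjusted p = 0.116) on the log2 scale. Gabrb1 and Gabra4 lie on opposite strands of chromosome 5 and share 46 bases of exon in the GENCODE M21 annotation, and the ratio of Gabra4 to Gabrb1 per kb was, in geometric means, 2.87 times as high in the hypothalamus IP as in its input and 2.92 times as high in the midbrain IP as in its input (exact permutation p = 0.1 for each, n = 3 against 3).

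The gamma subunits, which place receptors at synapses, were not called in either region without the block. Gabrg1 stood at 27.3, 9.11 and 16.7 CPM in the hypothalamus IP against 70.05, 22.5 and 21.8 CPM in the hypothalamus input, and at 21.6, 19.97 and 11.3 CPM in the midbrain IP against 33.6, 12.4 and 11.8 CPM in the midbrain input. Gabrg3 stood at 29.6, 12.01 and 20.01 CPM in the hypothalamus IP against 54.9, 17.6 and 36.8 CPM in the hypothalamus input, and at 35.2, 22.6 and 21.7 CPM in the midbrain IP against 22.6, 17.7 and 18.7 CPM in the midbrain input. Both genes were lower in the IP in all 3 hypothalamic pairs. Their hypothalamic log2 fold changes were -1.11 ± 0.56 and -0.82 ± 0.39, which passed with the block at -0.99 ± 0.29 and -0.80 ± 0.23, while the midbrain ones of -0.12 ± 0.55 and 0.43 ± 0.39 passed in neither fit. Gabrg1 is also known from astrocytes, and the summed astrocyte markers stood at 305 to 420 CPM in the hypothalamus IP, against 1494 to 2838 CPM in the hypothalamus input. Of those 16 markers, 16 fell and none was at 0; their part in the level of Gabrg1 was not tested.

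Gabrd, Gabre and Gabrq encode the delta, epsilon and theta subunits. Delta carries tonic inhibition outside synapses, while epsilon and theta are known from the hypothalamus and from monoamine cell groups. Gabrd stood at 1.77, 0.845 and 9.48 CPM in the hypothalamus IP against 2.04, 0.394 and 3.69 CPM in the hypothalamus input, and at 21.3, 6.18 and 20.04 CPM in the midbrain IP against 8.55, 4.62 and 13.9 CPM in the midbrain input. Its log2 fold changes were 0.99 ± 0.89 and 0.81 ± 0.86, with overlapping groups. Without hypothalamus IP replicate 3 the hypothalamic one was -0.64, in an unblocked fit that kept hypothalamus input replicate 3, the highest of those inputs. Gabre stood at 17.5, 4.42 and 2.92 CPM in the hypothalamus IP against 24.7, 7.80 and 4.83 CPM in the hypothalamus input, and at 2.83, 1.86 and 1.95 CPM in the midbrain IP against 1.44, 0.104 and 0.378 CPM in the midbrain input. Gabrq stood at 106, 27.1 and 25.98 CPM in the hypothalamus IP against 135, 47.7 and 53.2 CPM in the hypothalamus input, and at 27.7, 21.7 and 10.2 CPM in the midbrain IP against 18.2, 9.91 and 6.95 CPM in the midbrain input. Both were lower than the input in all 3 hypothalamic pairs and higher than it in all 3 midbrain pairs. Neither was called without the block, at -0.58 ± 0.83 and -0.57 ± 0.60 in the hypothalamus and 1.77 ± 0.90 and 0.77 ± 0.61 in the midbrain. With it, Gabrq passed in the hypothalamus at -0.71 ± 0.25 and both passed in the midbrain, Gabre at 2.29 ± 0.50 and Gabrq at 0.81 ± 0.25.

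Of the rho subunits, which form receptors best known from the retina, Gabrr2 fell in the midbrain IP. Gabrr2 stood at 0.624, 0.0367 and 0.618 CPM in the hypothalamus IP against 2.08, 1.24 and 0.967 CPM in the hypothalamus input, and at 0.531, 1.34 and 0.106 CPM in the midbrain IP against 6.63, 4.04 and 4.16 CPM in the midbrain input. In both regions the IP libraries lay below the inputs without overlap, and the midbrain IP was 7.44-fold lower, at -2.90 ± 0.92 (SE, adjusted p = 0.0281). That call was lost without midbrain IP replicate 1, midbrain input replicate 1, midbrain IP replicate 3 or midbrain input replicate 3, each left out alone, with adjusted p between 0.051 and 0.0824. Its log2 fold change was -3.94 without midbrain IP replicate 2. Gabrr1 stayed at or under 1.88 CPM in every library and was called in neither region, though its midbrain IPs lay below its midbrain inputs without overlap.

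Both GABA-B subunits were higher in the IP of every same-numbered pair. Gabbr1 stood at 865, 284 and 344 CPM in the hypothalamus IP against 399.8, 176 and 231 CPM in the hypothalamus input, and at 971, 483 and 605 CPM in the midbrain IP against 423, 289 and 331 CPM in the midbrain input. Gabbr2 stood at 233, 107 and 169.7 CPM in the hypothalamus IP against 138, 55.9 and 97.4 CPM in the hypothalamus input, and at 415, 231 and 398 CPM in the midbrain IP against 201, 131 and 180.5 CPM in the midbrain input. In the midbrain no IP library of either gene overlapped the inputs. Gabbr2 rose 2.04-fold in the midbrain IP, at 1.03 ± 0.35 (SE, adjusted p = 0.0389), and Gabbr1 had 0.98 ± 0.42 (SE, adjusted p = 0.0894) on the log2 scale, which missed the threshold. In the hypothalamus the log2 fold changes were 0.89 ± 0.42 (SE, adjusted p = 0.123) for Gabbr1 and 0.81 ± 0.35 (SE, adjusted p = 0.0959) for Gabbr2. With the block all 4 values passed, at 0.81 ± 0.16 and 0.82 ± 0.13 in the hypothalamus and 0.92 ± 0.16 and 1.00 ± 0.13 in the midbrain for Gabbr1 and Gabbr2. The midbrain call of Gabbr2 was lost, with adjusted p between 0.0509 and 0.131, without any 1 of 6 libraries: the IPs of midbrain replicates 1 and 3, the 3 midbrain inputs and hypothalamus input replicate 3. The ratio of Gabbr1 to Gabbr2 per kb was 2.41 ± 0.74 in the hypothalamus IP against 2.42 ± 0.34 in its input, and 1.71 ± 0.36 in the midbrain IP against 1.76 ± 0.16 in its input (SD, n = 3 each), so the subunits differed between fractions by less than their spread.

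Among the glycine receptor subunits, Glra2 rose in the midbrain IP. Its product is the alpha subunit prevalent before birth in the spinal cord and retained in parts of the adult brain. Glra2 stood at 37.7, 24.1 and 47.2 CPM in the hypothalamus IP against 37.97, 18.3 and 21.7 CPM in the hypothalamus input, and at 62.1, 38.97 and 49.5 CPM in the midbrain IP against 23.7, 21.1 and 14.2 CPM in the midbrain input. All midbrain IPs lay above all midbrain inputs, a 2.55-fold rise at 1.35 ± 0.33 (SE, adjusted p = 0.0074) that held without any 1 library, while the hypothalamic groups overlapped, at 0.48 ± 0.32 (SE, adjusted p = 0.272). Glra1, the adult subunit mutated in startle disease, stood at 6.24, 5.53 and 5.70 CPM in the hypothalamus IP against 10.8, 6.53 and 8.82 CPM in the hypothalamus input, and at 18.96, 14.99 and 15.3 CPM in the midbrain IP against 19.3, 19.04 and 14.8 CPM in the midbrain input. All hypothalamic IPs of Glra1 lay below the inputs, at -0.58 ± 0.23 (SE, adjusted p = 0.0646), which passed with the block at -0.57 ± 0.20; the midbrain value was -0.11 ± 0.22. The ratio of Glra2 to Glra1 per kb was 4.77 ± 1.52 in the hypothalamus IP against 2.24 ± 0.41 in its input, and 2.33 ± 0.29 in the midbrain IP against 0.841 ± 0.104 in its input (SD, n = 3 each, exact permutation p = 0.1 in each region). No library of either IP overlapped its input in this ratio.

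Glra3, a subunit studied in spinal pain circuits, stood at 6.65, 2.92 and 2.60 CPM in the hypothalamus IP against 14.4, 3.76 and 3.42 CPM in the hypothalamus input, and at 16.6, 10.9 and 6.64 CPM in the midbrain IP against 10.03, 4.15 and 3.29 CPM in the midbrain input. Glra4, whose human counterpart is a pseudogene, stood at 0.222, 0.312 and 0.150 CPM in the hypothalamus IP against 1.39, 0.429 and 0.242 CPM in the hypothalamus input, and at 3.19, 2.995 and 1.12 CPM in the midbrain IP against 1.25, 1.78 and 0.402 CPM in the midbrain input. Both were below the input in every hypothalamic pair and above it in every midbrain pair. Their log2 fold changes were -0.82 ± 0.63 and -1.58 ± 0.79 in the hypothalamus and 0.96 ± 0.63 and 1.09 ± 0.75 in the midbrain, none of which was called, and with the block Glra3 passed in the midbrain at 1.07 ± 0.27. Glrb, the beta subunit, stood at 255, 67.9 and 95.8 CPM in the hypothalamus IP against 162, 47.8 and 63.8 CPM in the hypothalamus input, and at 362, 161 and 134 CPM in the midbrain IP against 263, 108 and 106 CPM in the midbrain input. It was above the input in every pair, at 0.62 ± 0.59 and 0.46 ± 0.59, and passed with the block in both regions, at 0.59 ± 0.15 and 0.47 ± 0.15. Without the replicate 1 IP of the region, the log2 fold changes of Glrb were -0.15 and -0.10 in unblocked fits. Those fits kept the replicate 1 input, the highest input of its region, so they do not show that the direction rests on 1 library. With the block and without replicate 1 in all 4 groups, Glrb was called higher in the hypothalamus and was not called in the midbrain.

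Gephyrin, which gathers glycine and GABA-A receptors at the postsynaptic membrane, was called in neither region. Gphn stood at 53.4, 60.7 and 66.2 CPM in the hypothalamus IP against 57.4, 58.2 and 59.6 CPM in the hypothalamus input, and at 43.97, 73.6 and 51.02 CPM in the midbrain IP against 66.8, 64.1 and 62.1 CPM in the midbrain input. Its log2 fold changes of 0.04 ± 0.18 and -0.20 ± 0.18 passed in neither fit, and its libraries were not highest in replicate 1 except in the midbrain input. Exons of Gphn share 147 bases with Gm48226 on the opposite strand, so its counts also carry an uncertainty of strand. It is not the same as for Gabra5, since Gm9962 is among the gene rows and Gm48226 is not.

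The chloride loader Slc12a2 had the lowest adjusted p of the set in both tests of IP against input. Slc12a2 stood at 21.5, 7.58 and 8.65 CPM in the hypothalamus IP against 82.3, 40.98 and 38.6 CPM in the hypothalamus input, and at 18.04, 14.8 and 11.9 CPM in the midbrain IP against 127, 73.1 and 86.5 CPM in the midbrain input. No IP library reached its region's lowest input. It fell 4.29-fold in the hypothalamus IP, at -2.10 ± 0.42 (SE, adjusted p = 0.00249), and 6.40-fold in the midbrain IP, at -2.68 ± 0.43 (SE, adjusted p = 0.000649), and both calls held without any 1 library, the hypothalamic one at -2.73 without hypothalamus IP replicate 1. Glia and choroid plexus are known to express this transporter. Oligodendrocyte markers summed to 190.4 to 218 CPM in the hypothalamus IP against 2570 to 3446 CPM in the hypothalamus input, and to 294 to 465 CPM in the midbrain IP against 4964 to 6419 CPM in the midbrain input, with none of the 12 at 0. Astrocyte markers summed to 443 to 469.8 CPM in the midbrain IP against 1886 to 3082 CPM in the midbrain input. Of 10 ependymal and choroid plexus markers, 7 fell in the hypothalamus and 8 in the midbrain, with sums of 9.89 to 14.4 CPM in the hypothalamus IP against 56.5 to 65.8 CPM in the hypothalamus input, and of 10.2 to 43.2 CPM in the midbrain IP against 64.1 to 992 CPM in the midbrain input. Folr1 was at 0 in the hypothalamus IP and Tmem212 in the midbrain IP. The part of these cells in the fall of Slc12a2 was not tested.

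The extruder Slc12a5, a marker of mature neurons, did not pass the test. Slc12a5 stood at 579, 182 and 191 CPM in the hypothalamus IP against 409.5, 166 and 190.1 CPM in the hypothalamus input, and at 579.6, 304 and 229 CPM in the midbrain IP against 420.3, 239 and 194 CPM in the midbrain input. It was above the input in every pair, at 0.32 ± 0.51 (SE, adjusted p = 0.675) and 0.38 ± 0.51 (SE, adjusted p = 0.605). Without the replicate 1 IP of the region the log2 fold change was -0.45 in the hypothalamus and -0.09 in the midbrain. Those fits were unblocked and kept the replicate 1 input, the highest input of its region. They do not show that the direction rests on 1 library. With the block and without replicate 1 in all 4 groups, Slc12a5 was called in neither region. Taken within each library, the ratio of Slc12a5 to Slc12a2 per kb of exon was 39.5, 35.2 and 32.4 in the hypothalamus IP against 7.30, 5.93 and 7.21 in the hypothalamus input, and 47.1, 30.0 and 28.3 in the midbrain IP against 4.86, 4.79 and 3.28 in the midbrain input. Every IP ratio lay above every input ratio of its region, and the geometric means differed 5.24-fold in the hypothalamus and 8.06-fold in the midbrain. The exact permutation p was 0.1 in each region, the smallest that 3 libraries against 3 allow. Between the IPs the ratio differed by less than its spread, at 35.7 ± 3.6 in the IP of the hypothalamus and 35.1 ± 10.4 in that of the midbrain (SD, n = 3 each, exact permutation p = 0.9). Between the inputs it was 6.81 ± 0.77 in the hypothalamus and 4.31 ± 0.89 in the midbrain, without overlap (exact permutation p = 0.1).

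**Figure D3:**
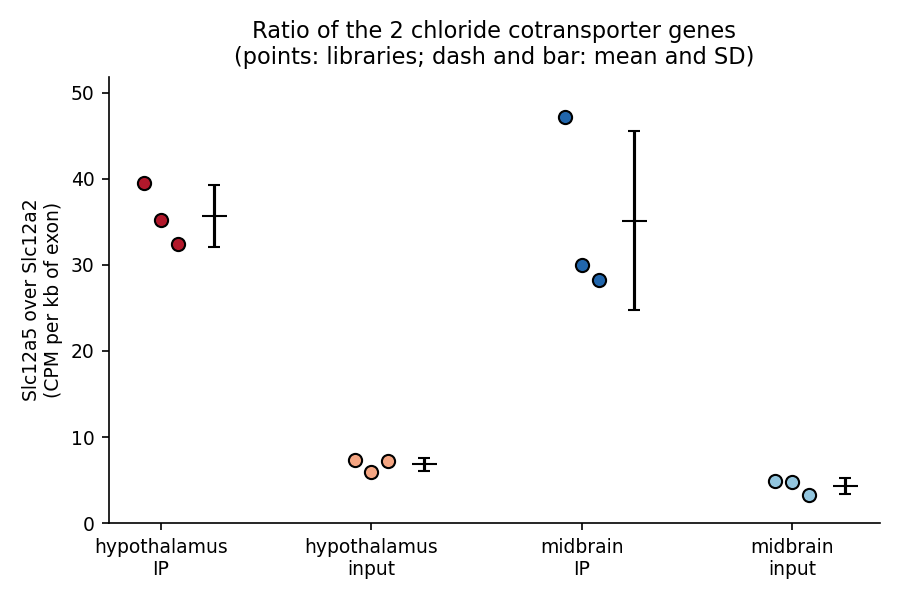
Ratio of Slc12a5 to Slc12a2, each in CPM per kb of exon, in each library; points are libraries (replicates 1 to 3 from left to right), the dash and bar are the mean and SD of the group. The 6 IP libraries lie between 28.3 and 47.1 and the 6 input libraries between 3.28 and 7.30.

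Leaving out 1 library also added calls between IP and input. In the hypothalamus, Gabra4 passed at 1.28 without IP replicate 2, Gabrg3 at -1.18 without IP replicate 1 and at -1.16 without input replicate 2, and Gabrq at -1.57 without IP replicate 1. Gabbr1 passed there at 1.29 without input replicate 1, Gabbr2 at 1.15 without input replicate 1 and at 1.05 without IP replicate 2, and Glra1 at -0.75 without input replicate 2. In the midbrain, Gabra2 passed at 1.00 and Gabre at 3.21 without midbrain input replicate 1. Gabra4 passed at 1.37 without midbrain IP replicate 2 and at 1.11 without hypothalamus IP replicate 2 or 3, and Gabbr1 at 0.98 without hypothalamus IP replicate 1. Among the uncalled hypothalamic values, leaving out input replicate 1 turned Gabra3 to 0.04, Gabrb2 to 0.40, Gabre to 0.40, Gabrq to 0.08 and Glra3 to 0.18, and leaving out IP replicate 1 turned Gabra2 to -0.16. These fits had no block and left out 1 library of a pair. A gain or a sign change in them therefore does not show that a value rests on 1 library.

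The second question is whether the enrichment of a gene differed between the regions, tested as the hypothalamic minus the midbrain log2 fold change. None of the 23 genes was called in either direction by edgeR with or without the block, where 0.0772% of all genes were called without it and 0.579% with it. At an unadjusted p under 0.05, 2 genes passed without the block, Gabrg3 and Glra4, and 8 with it. In all of them the log2 fold change of IP over input was lower in the hypothalamus, which is not a statement about level. No share of all genes was counted at an unadjusted p, here or further on, so such counts have no background to be read against. DESeq2 and limma-voom called 0 in either direction, and so did the unblocked fit without replicate 1, in which 0.0491% of all genes were called. The largest positive differences were those of the low-count genes Gabrr1 at 2.82 ± 1.85 and Gabrr2 at 1.16 ± 1.24. The largest negative ones were those of Glra4 at -2.66 ± 1.09, Gabre at -2.35 ± 1.22, Glra3 at -1.79 ± 0.89, Gabrq at -1.33 ± 0.85 and Gabrg3 at -1.25 ± 0.55. For Gabra5 the difference was -0.17 ± 0.40, and for Slc12a2 it was 0.58 ± 0.57, so a call in one region and not in the other, as for Glra2 at -0.87 ± 0.45 and Gabbr2 at -0.22 ± 0.49, was not shown to be a regional difference. The median difference of the set was -0.17, beside -0.01 over all genes.

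The third question sets the regions against each other within a fraction. Between the IPs of the hypothalamus and the midbrain, 0 of the 23 genes were called higher in the hypothalamus by edgeR, DESeq2 or limma-voom, where 2.05% of all genes were called by edgeR. At an unadjusted p under 0.05 there were 2, Gabre and Gabrq. In the lower direction 2 genes were called, Glra1 and Glra4, where 2.21% of all genes were. With the block 1 gene was higher (Gabrq), beside 4.41% of all genes, and 9 were lower, beside 6.75% of all genes. Those 9 were Gabra4, Gabrb2, Gabrd, Gabbr1, Gabbr2, Glra1, Glra3, Glra4 and Glrb. Without replicate 1 and with no block, 0 were higher and 5 lower (Gabrb2, Gabbr1, Glra1, Glra3 and Glrb), beside 1.48% and 3.07% of all genes. The median log2 fold change of the set was -0.37, beside 0.01 over all genes. Between the inputs of the hypothalamus and the midbrain, 1 gene was higher, Gabre, beside 1.00% of all genes, and 1 lower, Glra1, beside 0.601% of all genes. With the block 3 were higher (Gabra2, Gabre and Gabrq), beside 2.87% of all genes, and 7 lower (Gabra4, Gabrb2, Gabrd, Gabbr2, Glra1, Glrb and Slc12a2), beside 3.18% of all genes. Without replicate 1 and with no block, 2 were higher (Gabre and Gabrq) and 2 lower (Glrb and Slc12a2), beside 0.742% and 0.818% of all genes. The median of the set was -0.16 there, beside 0.01 over all genes, and library size alone in place of TMM moved that over all genes to 0.13. The regions of 1 replicate number were sequenced on different lanes, and the part of the lane was not tested.

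**Figure D4:**
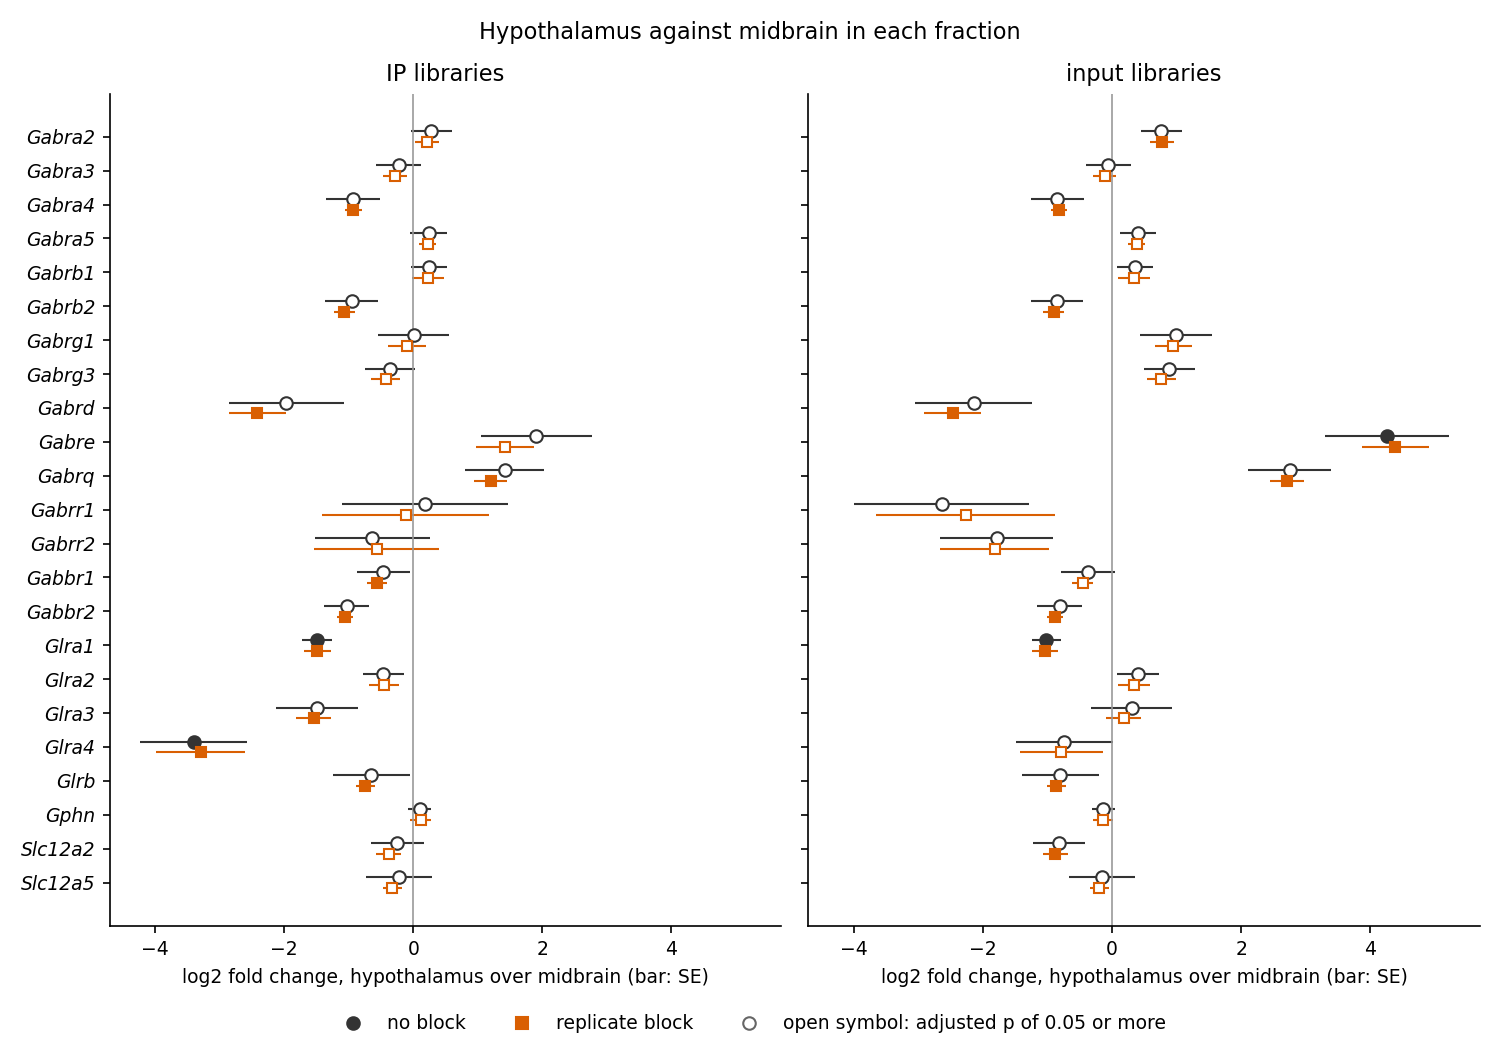
Log2 fold change of hypothalamus over midbrain for the 23 tested genes, between the IPs (left) and between the inputs (right); circles are fits without a block, squares fits with the replicate block, bars are SE and filled symbols have an adjusted p under 0.05. Glra1 lies left of 0 and filled in both fractions, while Gabre and Gabrq lie right of 0 in both.

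Without the block, Glra1 was the gene of the set with a regional call in both fractions. Its libraries, at 6.24, 5.53 and 5.70 CPM in the hypothalamus IP against 18.96, 14.99 and 15.3 CPM in the midbrain IP, did not overlap, and those of the inputs, at 10.8, 6.53 and 8.82 CPM in the hypothalamus against 19.3, 19.04 and 14.8 CPM in the midbrain, did not either. It was 2.82-fold lower in the hypothalamus IP, at -1.49 ± 0.23 (SE, adjusted p = 0.00339), and 2.03-fold lower in the hypothalamus input, at -1.02 ± 0.23 (SE, adjusted p = 0.0456). The IP call held without any 1 library. The input call was lost without any 1 of 11 libraries, with adjusted p between 0.0523 and 0.213, hypothalamus IP replicate 1 being the exception, without a filter on low counts (edgeR, adjusted p = 0.051), and with only the input libraries in the fit (0.0722). Exons of Glra1 share 141 bases with the antisense gene Gm12236, which is not among the gene rows. The strand setting is not given, so this overlap adds uncertainty to the counts of Glra1. Glra4 was 10.6-fold lower in the hypothalamus IP, at -3.40 ± 0.83 (SE, adjusted p = 0.0403), with all 3 hypothalamus IPs at or below 0.312 CPM and all 3 midbrain IPs at or above 1.12 CPM. That call was lost without any 1 of 8 libraries: the 3 hypothalamus IPs, midbrain IP replicates 1 and 2, hypothalamus input replicate 2 and midbrain input replicates 1 and 2, with adjusted p between 0.0548 and 0.0998, and when the fit held only the IP libraries, at 0.0594.

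Gabrd, Gabra4, Gabrb2, Gabbr2 and Glrb were lower in the hypothalamus than in the midbrain in every same-numbered pair of both fractions, and passed with the block. Blocked log2 fold changes were -2.42 ± 0.44 between IPs and -2.47 ± 0.44 between inputs for Gabrd, -0.93 ± 0.13 and -0.82 ± 0.13 for Gabra4, -1.07 ± 0.17 and -0.91 ± 0.17 for Gabrb2, -1.06 ± 0.13 and -0.89 ± 0.13 for Gabbr2, and -0.74 ± 0.15 and -0.87 ± 0.15 for Glrb. Unblocked values were close to these in size and were not called, for example -1.97 ± 0.89 and -2.15 ± 0.91 for Gabrd and -0.65 ± 0.59 and -0.80 ± 0.60 for Glrb. The IP and the input comparisons share no libraries, but each IP was sequenced beside its same-numbered input. Gabrb1 did not follow Gabrb2: the ratio of Gabrb2 to Gabrb1 per kb was 19.8 ± 8.7 in the hypothalamus IP against 46.9 ± 15.3 in the midbrain IP, and 13.7 ± 1.6 in the hypothalamus input against 33.5 ± 11.9 in the midbrain input, without overlap in either fraction (SD, n = 3 each, exact permutation p = 0.1). Summed thalamic markers were also lower in the hypothalamus, at 843 to 2861 CPM in its IP against 3388 to 5822 CPM in the midbrain IP. Of those 8 markers, 1 fell between the IPs (Slc17a7) and 0 between the inputs by edgeR or limma-voom, with 3 by DESeq2 and 7 at an unadjusted p under 0.05. Over all genes, edgeR called 2.21% lower between the IPs and 0.601% between the inputs. The part of the thalamic markers in these differences was not tested.

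Gabre and Gabrq had the opposite regional direction, higher in the hypothalamus. They lie on chromosome X within chrX:72255999-72842602 (mm10), with Gabra3 between them; Gabre and Gabra3 are on the minus strand and Gabrq on the plus strand. Between the inputs Gabre stood at 24.7, 7.80 and 4.83 CPM in the hypothalamus against 1.44, 0.104 and 0.378 CPM in the midbrain, and Gabrq at 135, 47.7 and 53.2 CPM against 18.2, 9.91 and 6.95 CPM, without overlap for either gene. Gabre was 19.1-fold higher in the hypothalamus input, at 4.26 ± 0.96 (SE, adjusted p = 0.0498), and Gabrq 6.73-fold, at 2.75 ± 0.64 (SE, adjusted p = 0.0568), just short of the threshold. The Gabre call was lost without any 1 of 8 libraries: the first 2 hypothalamus inputs, the last 2 midbrain inputs, the 3 midbrain IPs and hypothalamus IP replicate 2, with adjusted p between 0.0593 and 0.205. Its log2 fold change was 3.29 without hypothalamus input replicate 1 and 5.70 without midbrain input replicate 1. The call was also lost with no filter on low counts, with limma-voom and with only the input libraries in the fit. Gabrq passed without hypothalamus IP replicate 1, at 2.75, or replicate 3, at 2.75. Between the IPs the log2 change was 1.91 ± 0.86 (SE, adjusted p = 0.267) for Gabre and 1.42 ± 0.61 (SE, adjusted p = 0.239) for Gabrq, the second of which passed with the block at 1.20 ± 0.25. Gabra3, the gene between them, had log2 fold changes of -0.23 ± 0.35 between IPs and -0.06 ± 0.35 between inputs. Within a library, the ratio of Gabrq to Gabra3 per kb was 0.648 ± 0.266 in the hypothalamus IP against 0.223 ± 0.070 in the midbrain IP, and 0.802 ± 0.189 in the hypothalamus input against 0.117 ± 0.037 in the midbrain input (SD, n = 3 each, exact permutation p = 0.1 in each).

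The promoters of these X-linked neighbours, and of Gabra5, are printed here because Gabre and Gabrq shared a regional direction that Gabra3 did not, and Gabra5 rose in both IPs. Each is the 250 bases before a RefSeq gene start in build GRCm38.p6, written 5′ to 3′ on the gene's strand, at chrX:72274722-72274971 for Gabre (minus), chrX:72656920-72657169 for Gabra3 (minus, the more distal of its starts), chrX:72824928-72825177 for Gabrq (plus) and chr7:57510060-57510309 for Gabra5 (minus). Capitals mark matches on either strand to 3 motifs. The GC box was searched as GGGCGG on both strands of each window. The CCAAT box was searched by the letters of its name. The TATA box was searched as TATAAA, likewise on both strands.
Gabre: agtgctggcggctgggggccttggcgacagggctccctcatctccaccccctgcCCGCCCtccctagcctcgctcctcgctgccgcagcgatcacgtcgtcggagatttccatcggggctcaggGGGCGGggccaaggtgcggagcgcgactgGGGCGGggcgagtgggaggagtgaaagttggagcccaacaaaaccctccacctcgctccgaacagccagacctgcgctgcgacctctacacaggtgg
Gabra3: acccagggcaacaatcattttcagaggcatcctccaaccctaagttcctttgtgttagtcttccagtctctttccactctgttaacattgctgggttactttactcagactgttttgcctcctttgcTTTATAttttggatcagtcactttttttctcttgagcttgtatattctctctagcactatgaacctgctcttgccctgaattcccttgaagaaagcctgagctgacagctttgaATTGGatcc
Gabrq: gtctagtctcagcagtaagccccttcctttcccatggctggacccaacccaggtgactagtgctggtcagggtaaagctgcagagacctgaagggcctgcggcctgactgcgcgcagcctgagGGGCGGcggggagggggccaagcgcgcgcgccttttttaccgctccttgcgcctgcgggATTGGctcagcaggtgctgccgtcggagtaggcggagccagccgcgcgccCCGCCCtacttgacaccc
Gabra5: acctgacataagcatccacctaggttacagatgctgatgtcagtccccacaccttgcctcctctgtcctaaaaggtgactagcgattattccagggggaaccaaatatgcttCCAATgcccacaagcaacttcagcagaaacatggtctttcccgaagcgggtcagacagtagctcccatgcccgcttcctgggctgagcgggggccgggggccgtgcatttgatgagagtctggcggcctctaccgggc
Gabre and Gabrq hold GC boxes and neither Gabra3 nor Gabra5 does, Gabra3 holds a TATA box, and Gabra3, Gabrq and Gabra5 hold CCAAT boxes. In windows of 300 bases that also take in 50 bases after the start, 35.66% of 32851 mouse promoters held a GC box, 37.41% a CCAAT box and 13.62% a TATA box. Of 28 such windows, which covered 23 of the 26 genes, 15 held a GC box (53.6%), 14 of 28 a CCAAT box and 4 a TATA box (14.3%). Gabrd, Glra1 and Slc12a2 had no window among the 28, so these counts do not cover their promoters. The TATA boxes were those of Gabra3, Gabrb2 and Glra2, and the overlapping windows of Gabra3 held the same match. None of the 28 windows held a CRE (TGACGTCA, 1.79% of all promoters) or an EGR site (GCGTGGGCG, 0.61%), and 1, of Slc12a5, held an E-box (CACGTG, 7.15%). The median GC content was 56.4% in these windows, beside 52.7% over all. A match is a description of these letters.

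**Figure D5:**
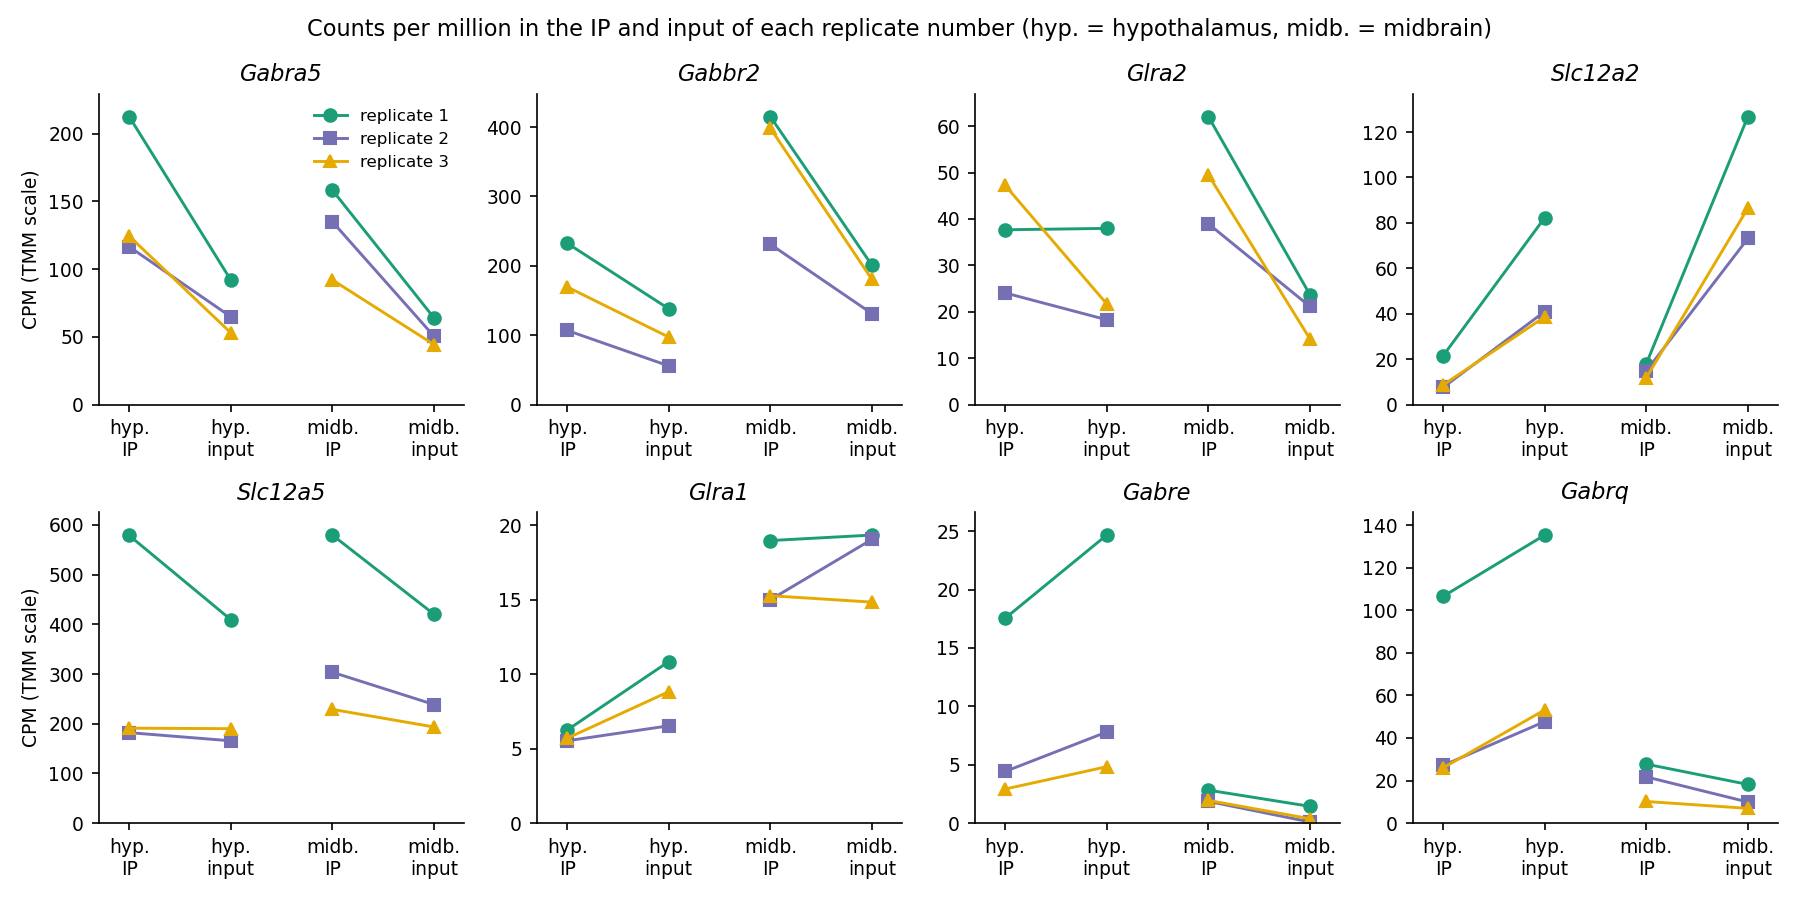
CPM of 8 genes in each library, with IP left of input for the hypothalamus and for the midbrain; lines join the IP and input of 1 replicate number, and the axes start at 0. Slc12a2 lies lower and Gabra5 and Gabbr2 higher in the IP in each of the 6 pairs, and replicate 1 is the highest line in most panels.

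The partners of these receptors were followed in 5 further gene lists, chosen with earlier results of these data known. Their counts are to be read against the shares of all genes called: without the block 14.2% higher and 19.6% lower in the IP of the hypothalamus, 14.0% and 19.9% in that of the midbrain, 2.05% and 2.21% between the IPs and 1.00% and 0.601% between the inputs. With the block those shares were 19.5% and 23.8%, 20.3% and 23.6%, 4.41% and 6.75%, and 2.87% and 3.18%. Of 24 genes for scaffolds, clustering and trafficking of GABA-A and glycine receptors, 7 rose and 4 fell in the hypothalamus IP against input, and 6 rose and 2 fell in the midbrain IP against input. Medians were 0.32 and 0.28, beside -0.08 and -0.05 over all genes. Gabarapl2, a relative of the GABA-A receptor-associated protein, averaged 23.2 ± 5.5 CPM in the hypothalamus IP against 9.19 ± 2.09 CPM in its input and 21.4 ± 3.7 CPM in the midbrain IP against 9.02 ± 1.26 CPM in its input (SD, n = 3 each). Lhfpl4, which links GABA-A receptors to neuroligin 2, averaged 201 ± 129 CPM in the hypothalamus IP against 92.3 ± 9.6 CPM in its input, and the auxiliary subunit Shisa7 fell there, at 32.0 ± 23.0 CPM in the IP against 107 ± 10 CPM in the input. In the midbrain, Hap1, which carries receptors back to the surface, averaged 147 ± 35 CPM in the IP against 68.2 ± 14.3 CPM in the input, and Plcl1, a regulator of receptor phosphorylation, fell at 16.8 ± 5.4 CPM in the IP against 57.5 ± 5.9 CPM in the input. Between the IPs 1 rose in the hypothalamus (Plcl1) and 1 fell (Lhfpl3, at 62.8 ± 10.6 CPM in the hypothalamus IP against 133 ± 9 CPM in the midbrain IP). Between the inputs 1 rose, Hap1, at 189 ± 19 CPM in the hypothalamus against 68.2 ± 14.3 CPM in the midbrain. None fell there by edgeR, DESeq2 or limma-voom, with 1 at an unadjusted p under 0.05. In fits with the replicate block, 12 rose and 5 fell in the IP of the hypothalamus, 9 and 3 in that of the midbrain, 5 and 2 between the IPs and 2 and 2 between the inputs.

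Of 16 auxiliary subunits and effectors of GABA-B receptors, 7 rose and 2 fell in the hypothalamus IP, and 8 rose and 1 fell in the midbrain IP, beside 14.2% and 19.6% of all genes in the hypothalamus and 14.0% and 19.9% in the midbrain. Medians were 0.74 and 0.79. The G protein subunit Gng3 averaged 2062 ± 34 CPM in the hypothalamus IP against 677 ± 148 CPM in its input, and 1787 ± 104 CPM in the midbrain IP against 609.7 ± 111 CPM in its input. The channel genes Kcnj3 and Kcnj9, which encode potassium channels opened by GABA-B receptors, were called higher in both regions. Jakmip1, which binds Gabbr1 and microtubules, averaged 69.8 ± 14.1 CPM in the midbrain IP against 31.1 ± 7.6 CPM in its input, and Ajap1, a partner of the GABA-B complex, had a log2 fold change there of 1.13 ± 0.23 (SE, edgeR adjusted p = 0.00294). The auxiliary subunits Kctd12, at 30.2 ± 9.8 CPM in the hypothalamus IP against 76.4 ± 10.1 CPM in its input, and Kctd12b, at 0.747 ± 0.392 CPM against 7.69 ± 0.39 CPM, fell. Between the IPs 2 fell, Kctd12, at 30.2 ± 9.8 CPM in the hypothalamus IP against 68.6 ± 1.8 CPM in the midbrain IP, and Ajap1, at 53.1 ± 11.5 CPM against 100.5 ± 23.8 CPM; none rose by edgeR or DESeq2, 1 did by limma-voom, and 2 had an unadjusted p under 0.05. Between the inputs none was called by edgeR, DESeq2 or limma-voom, with 2 at an unadjusted p under 0.05, both lower. Once the block was fitted, 11 rose and 2 fell in the IP of the hypothalamus, 9 and 1 in that of the midbrain, 1 and 4 between the IPs and 0 and 1 between the inputs.

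Of 29 other cation-chloride cotransporters, chloride channels and anion exchangers, 26 were tested. In the hypothalamus IP 1 rose and 3 fell, beside 14.2% and 19.6% of all genes. Lrrc8d, a subunit of the volume-regulated anion channel, averaged 61.3 ± 21.3 CPM in the IP against 35.7 ± 7.4 CPM in the input, Ttyh2 0.923 ± 0.171 CPM against 24.4 ± 10.5 CPM and Ano3 5.95 ± 2.65 CPM against 21.4 ± 11.2 CPM. In the midbrain IP 6 fell, beside 19.9% of all genes, among them Ttyh2 at 1.89 ± 0.92 CPM in the IP against 53.2 ± 14.9 CPM in the input, Slc12a9 at 2.59 ± 1.69 CPM against 10.1 ± 0.1 CPM, and the anion exchanger Slc4a2 at 4.74 ± 1.38 CPM against 16.4 ± 0.3 CPM. None rose there by edgeR, DESeq2 or limma-voom, with 1 at an unadjusted p under 0.05. Between the IPs 1 rose in the hypothalamus (Slc12a7) and 2 fell, Ano3 at 5.95 ± 2.65 CPM in the hypothalamus IP against 30.3 ± 12.2 CPM in the midbrain IP and Lrrc8b at 26.9 ± 9.98 CPM against 56.2 ± 8.9 CPM. Between the inputs none was called by edgeR, while DESeq2 and limma-voom each called 2 lower and 0 higher, and 1 higher and 4 lower had an unadjusted p under 0.05. With the replicate block, 2 rose and 8 fell in the IP of the hypothalamus, 1 and 8 in that of the midbrain, 1 and 7 between the IPs and 0 and 3 between the inputs.

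Of 15 kinases and partners of the chloride cotransporters with carbonic anhydrases, 4 fell in the IP of the hypothalamus, beside 19.6% of all genes, and 3 in that of the midbrain, beside 19.9%. None rose by edgeR, DESeq2 or limma-voom, with 2 in the hypothalamus and 1 in the midbrain at an unadjusted p under 0.05. Wnk1, the kinase that lowers Slc12a5 and raises Slc12a2 activity, averaged 254 ± 9 CPM in the hypothalamus IP against 578 ± 14 CPM in its input, and 261 ± 18 CPM in the midbrain IP against 698 ± 6 CPM in its input. Carbonic anhydrase Car2, an enzyme abundant in oligodendrocytes, averaged 18.5 ± 5.1 CPM in the hypothalamus IP against 247 ± 22 CPM in its input, and 50.5 ± 15.3 CPM in the midbrain IP against 499 ± 40 CPM in its input. Neto1 averaged 63.98 ± 9.98 CPM in the hypothalamus IP against 94.1 ± 19.1 CPM in its input, and Car14 0.457 ± 0.437 CPM in the midbrain IP against 8.07 ± 3.43 CPM in its input. Between the regions, Stk39, the kinase downstream of Wnk1, was lower in the hypothalamus in both fractions, at 131 ± 9 CPM in its IP against 183 ± 6 CPM in the midbrain IP and 122 ± 4 CPM in its input against 189 ± 8 CPM in the midbrain input. It was 1 of 3 genes that fell between the IPs and 1 of 2 that fell between the inputs, each beside Car2; none rose by edgeR, DESeq2 or limma-voom, with 0 between the IPs and 1 between the inputs at an unadjusted p under 0.05. With the replicate block, 2 rose and 4 fell in the IP of the hypothalamus, 1 and 5 in that of the midbrain, 0 and 5 between the IPs and 0 and 4 between the inputs. Of 10 genes of neurosteroid synthesis and endozepine signalling, 7 were tested. Dbi, the diazepam-binding inhibitor, averaged 72.1 ± 15.9 CPM in the hypothalamus IP against 205 ± 32 CPM in its input and 77.2 ± 14.6 CPM in the midbrain IP against 207 ± 40 CPM in its input. It was the only 1 that fell in the hypothalamus and 1 of 2 in the midbrain, with Star at 8.71 ± 0.61 CPM in the midbrain IP against 16.2 ± 3.4 CPM in its input; none rose by edgeR, DESeq2 or limma-voom, with 1 in each region at an unadjusted p under 0.05. Between regions none was called by edgeR in either fraction, 1 (Star) was higher in the hypothalamus IP by DESeq2, and 1 had an unadjusted p under 0.05, between the IPs. With the block 1 rose in the midbrain IP and 1 between the IPs. For the regional difference of the IP effects edgeR called none of the 88 genes tested in these lists without the block and 1 with it (Plcl1, higher), beside 0.0772% and 0.579% of all genes; DESeq2 called 2 higher and 0 lower, limma-voom 0, and 6 higher and 5 lower had an unadjusted p under 0.05. Without replicate 1 and with no block, the scaffold list gave 9 higher and 3 lower in the hypothalamus and 7 and 3 in the midbrain, and the GABA-B list 8 and 2 and then 8 and 1. The other chloride carriers gave 1 higher and 9 lower in the hypothalamus and 1 and 5 in the midbrain, the kinases and partners 1 and 4 and then 1 and 5, and the modulators 0 and 1 and then 0 and 2. Between the IPs the scaffold list gave 1 higher and 2 lower, beside 1.48% and 3.07% of all genes. The GABA-B list gave 2 lower there, the other chloride carriers 7 of 27 and the kinases and partners 2. Between the inputs 2 chloride carriers and 1 of the kinases and partners were lower, beside 0.818% of all genes.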

How the data were processed

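Ribosome-bound (IP) and input RNA of 2 brain regions was measured in 12 libraries, 3 per group. The authors deposited raw counts per gene symbol, made with STAR 2.0.0e and HTSeq on mm10, as the submitters' processing notes list; the annotation, strand setting and counting mode are not given in the sources used here. Rows that name no gene were left out: per library, reads with no feature were 7.60% to 17.4%, ambiguous reads 1.37% to 16.2% and reads without a unique alignment 37.3% to 48.6% in IPs and 23.7% to 30.0% in inputs. Total counts limit precision to a floor of 3 counts, which, like every interval of this kind, covers counting error only, since reads carried no molecular identifiers.

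Counts were scaled by TMM and filtered on low counts, which left 18128 of 32531 genes, and tested with edgeR 4.0.16 (R 4.3.3; robust quasi-likelihood F test, 4 group means in 1 fit, Benjamini-Hochberg adjustment over all genes, threshold 0.05). The SE is the absolute log2 fold change over the square root of F. CPM are on the TMM scale, and levels per kb use union exon lengths of GENCODE M21, matched for 23155 symbols (71.2%). Ratios within libraries were tested with exact two-sided permutation tests. The fit was tested on simulated data. Alternatives were other scalings, no filter, DESeq2 1.42.0, limma-voom (limma 3.58.1), a replicate block, only the groups compared, and each library left out; fits without replicate 1 and lengths of the longest coding transcript were added after seeing the data.

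Replicate numbers come from the labels. The deviations of same-numbered libraries from their group means correlated at 0.17 to 0.64 over 18 pairs (median 0.30), against -0.44 to 0.16 over 36 other pairs, and 12 of 12 libraries correlated best with their own number, so the numbers were taken to pair the samples.

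The genes of the set and the lists were chosen with earlier results of these data known. All genes of the set are described; from each further list, up to 3 called genes per comparison with a group mean of 5 CPM or more were given by the size of their fold change, and Kcnj3, Kcnj9 and Slc12a7 were named after their values were seen. Promoter sequences are from RefSeq (GRCm38.p6).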

Additional observations from a re-analysis of the deposited data

Results flagged for a closer look

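For 5 genes the IP was below its same-numbered input in all 3 hypothalamic pairs and above it in all 3 midbrain pairs. The hypothalamic minus the midbrain log2 fold change was -1.25 for Gabrg3 (edgeR, adjusted p = 0.731), -2.35 for Gabre (adjusted p = 0.812), -1.33 for Gabrq (adjusted p = 0.923), -1.79 for Glra3 (adjusted p = 0.797) and -2.66 for Glra4 (adjusted p = 0.665). With the replicate block the differences were -1.19 for Gabrg3 (edgeR, adjusted p = 0.145), -2.96 for Gabre (adjusted p = 0.071), -1.52 for Gabrq (adjusted p = 0.087), -1.72 for Glra3 (adjusted p = 0.0707) and -2.51 for Glra4 (adjusted p = 0.34). None passed the threshold in either fit. The 5 genes were picked by this pattern of pairs, so the shared sign of their differences follows from the choice. The share of all genes with the pattern was not counted.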

How the results depend on the processing

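Fitting the replicate block, by which the libraries pair, gave 5 genes higher and 5 lower in the hypothalamus IP against input, 10 higher in the midbrain IP against input, 1 higher and 9 lower between the IPs, and 3 higher and 7 lower between the inputs; every gene called without the block was also called with it. Without replicate 1, counts were 2 and 2 in the hypothalamus, 6 and 1 in the midbrain, 5 lower between the IPs and 2 and 2 between the inputs. With the replicate block and without replicate 1, they were 6 and 2 in the hypothalamus, 9 and 1 in the midbrain, 10 lower between the IPs and 2 and 8 between the inputs. Over the 18330 genes tested in that fit, 3051 were higher and 3252 lower in the hypothalamus, and 3099 and 3122 in the midbrain. Between the IPs 543 were higher and 1098 lower, and between the inputs 364 and 548. In the hypothalamus, 2 genes were lower with DESeq2 size factors or DESeq2 itself and 4 with library size alone. Over all genes, 3637 of 18128, 4398 of 23527 and 4011 of 18128 were lower in those fits, in that order. With only the groups compared in the fit, 5 were higher in the midbrain IP, 1 was lower between the IPs and 0 were lower between the inputs. Over all genes those counts were 2533 of 16836, 84 of 15531 and 204 of 17561. Between the inputs, 2 were higher with library size alone or DESeq2, 0 with limma-voom, and 0 were higher and 0 lower with no filter on low counts. Over all genes, 246 of 18128 were higher with library size alone, 442 of 23527 with DESeq2 and 209 of 18128 with limma-voom. With no filter, 171 of 23589 were higher and 107 lower. The cause of these changes was not tested.

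With 1 library left out at a time, 1 to 3 genes were higher and 1 to 3 lower in the hypothalamus IP against input, 2 to 4 higher and 1 to 2 lower in the midbrain IP against input, 0 higher and 1 to 2 lower between the IPs, and 0 to 2 higher and 0 to 1 lower between the inputs. The regional difference gave 0 throughout. Over all genes, with 18648 to 18832 tested, 1912 to 2604 were higher and 2757 to 3727 lower in the hypothalamus. In the midbrain 1918 to 2841 were higher and 2886 to 3925 lower. Between the IPs 199 to 387 were higher and 174 to 440 lower, and between the inputs 65 to 212 and 28 to 152. For the regional difference 8 to 27 were higher and 0 to 11 lower. Over all alternatives no called gene turned its direction, and 38 of the 115 gene values, none of them called, changed sign under at least 1 alternative. With 3 libraries a group and replicate 1 apart from the others, unblocked SEs were wide. Genes at or under the floor of 3 counts, Gabra6 and Gabrr3, could not be compared at this depth.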
